A study of Rattus norvegicus with 6 samples.

Results

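Myocardium that had been infarcted and injected with labelled stem cells derived from adipose tissue (ADSCs) was set against infarcted myocardium injected with phosphate-buffered saline (PBS). The comparison used 3 of the 6 arrays of the series: 1 of PBS-injected infarct and 2 of treated infarct, which the labels number replicates 1 and 3. The cells carried 124I-HIB, a fat-soluble ester with a positron-emitting iodine that lets injected cells be followed by imaging. All tissue came from Sprague Dawley rats aged 13 weeks and was collected at day 21. The labels date that day from a sham operation for infarcted tissue too, which leaves the interval after infarction and after injection unknown. Both groups share the infarct and an injection into the heart wall, and differ in what was injected. No array analysed here held infarct given unlabelled cells, so the cells and their tracer cannot be told apart here. A sham-operated array, an array of labelled ADSCs and an array of unlabelled ADSCs, both after 14 days of culture, make up the rest of the series. The sham and labelled-cell arrays are quoted for reference.

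After an infarct, dead muscle is cleared by phagocytes and replaced by a scar. Fibroblasts turn into contractile myofibroblasts, lay down collagen and elastic fibres, and answer to TGF-beta, which is stored in the matrix by latent binding proteins. The surviving ventricle relies on fatty acid oxidation and its sarcomeres keep beating, while atrial muscle has its own myosin light chains and secreted hormones. ADSCs are studied in this setting mainly for what they secrete, and few injected cells are commonly found to persist.

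Each level below is a log2 signal relative to the array's own 75th percentile, so 0 is the signal of the 75th percentile probe. A probe was called measured on an array when the scanner software marked it well above background there. Of 26785 features on the design, 17035 were measured on all 3 arrays, 10638 of them named genes and 6397 probes without a symbol. No probe was saturated, the 75th percentile of signal lay between 1058 and 1276 on these arrays and at 772 on sham, and all arrays shared 1 slide and 1 scan. As a check of the tissue, all 12 ventricular and general cardiomyocyte markers were measured on every myocardial array. The number of arrays limits precision. The PBS group is 1 array, the labels do not say that the treated pair came from separate animals, and p-values therefore reflect the scatter of this pair alone, some or all of which could be technical. The fit has 1 residual degree of freedom, and it assumes that the lone PBS array varies like the treated pair. An exact permutation test of 1 array against 2 cannot give a two-sided p below 0.333.

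Differences of 2-fold or more were more often downward than upward. Both differences of a feature share the single PBS array, so lying on the same side of it is not independent evidence. Features higher than PBS in both treated arrays numbered 6587 (38.7% of those tested), and 5815 (34.1%) were lower in both. That split depends on the scaling: with each array's median in place of its 75th percentile, 8257 were higher and 4452 lower, and with cyclic loess 6245 and 6264. At 2-fold or more in both arrays, 73 features (0.429%) were higher and 140 (0.822%) lower, or 24 and 65 with normexp background correction. Among named genes alone, 32 were 2-fold higher and 103 lower, while unnamed probes split evenly, with 41 higher and 37 lower. At 4-fold the count was 1 higher and 27 lower, and at 8-fold 0 higher and 9 lower. The median difference over all features was 0.01. Differences between the treated arrays had an SD of 0.31 across features, and the mean difference from PBS had one of 0.37. The remaining 4633 features (27.2%) lay on opposite sides of PBS in the treated pair, none of them by 2-fold on each side. Counts of list members below are to be read beside the shares of all features given here. Every difference and list median below uses the single PBS array, so its own deviation and an effect of treatment cannot be told apart.

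In limma's test with Benjamini-Hochberg adjustment over all 17035 features, 1 gene (0.00587%) passed at an adjusted p under 0.05. That gene was Rab15, a small GTPase of endosomal recycling (gene ID 299156), which fell in the treated arrays. Its level was 0.92 on the PBS array against -4.30 and -4.16 in treated replicates 1 and 3, with sham at -5.72. Sham was below the scanner's call for that probe. The treated arrays lay close together and far under PBS, and the log2 difference was -5.15 ± 0.10 (SD, n = 2; limma adjusted p = 0.0307). Labelled ADSCs in culture had a Rab15 level of -0.12. An unadjusted p under 0.05 was reached by 1805 features (10.6%), and 17 had an adjusted p under 0.1, 16 of them lower. The number that passed was 84 with normexp background correction and 48 with a trended, robust variance, and 0 when the filter on dim probes was loosened to 1 of the 3 arrays.

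**Figure D1:**
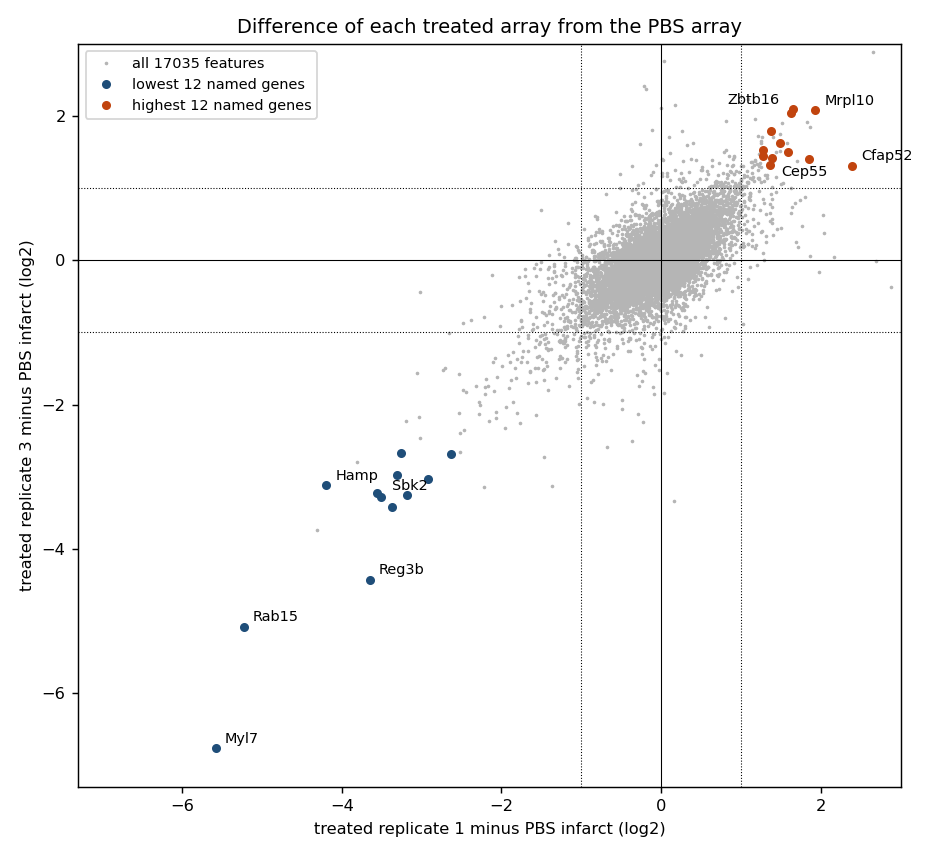
Log2 difference from PBS of treated replicate 1 (horizontal axis) and treated replicate 3 (vertical axis) for 17035 features, each a grey point, with dotted lines at 2-fold. The 12 lowest named genes (blue) reach Myl7 at -5.58 and -6.77. By their smaller difference, the 12 highest (orange) run from Mrpl10 at 1.93 and 2.09 down to Ttk at 1.27 and 1.53.

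The 12 lowest named genes, ranked by the smaller of the 2 differences, held an atrial myosin, secreted defence and carrier proteins, complement and a matricellular protein. This ranking chose them by the contrast itself, so their order and size are a description. Myl7, the regulatory myosin light chain of atrial muscle, had a level of -0.47 on the sham array, 7.60 on the PBS array, and 2.02 and 0.83 on treated replicates 1 and 3. PBS was far above the other 3 arrays, and the treated arrays stood between PBS and sham, with a mean difference of -6.17 ± 0.84 (SD, n = 2; limma adjusted p = 0.104). Reg3b, a secreted lectin that binds bacteria, had levels of 0.43 on the PBS array, -3.22 and -4.00 on the treated arrays and -4.07 on the sham array. Replicate 3 was at the sham level and replicate 1 a little above it (mean difference -4.04 ± 0.55). Reg3b has close relatives in the rat genome, so its probe may report more than 1 gene.

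Rbp4, the carrier of retinol in blood, stood at -2.0 on the PBS array, -5.37 and -5.41 on the treated arrays and -7.76 on the sham array, and sham was not well above background. Both treated arrays were about equally below PBS (mean difference -3.40 ± 0.03, SD, n = 2, limma adjusted p = 0.0688). Sbk2, a kinase on the atrial list, stood at -0.89 on the PBS array, -4.40 and -4.17 on the treated arrays and -5.15 on the sham array. Its treated values also lay between PBS and sham (mean difference -3.40 ± 0.16, SD, n = 2, limma adjusted p = 0.0688). Hamp, the iron hormone hepcidin, had levels of 4.68 on the PBS array against 0.49 and 1.57 in treated replicates 1 and 3, with sham at 0.53, so replicate 1 matched sham and replicate 3 was higher (mean difference -3.66 ± 0.76). C4a, a complement component with a near-identical relative, was at 3.92 on the PBS array, 0.36 and 0.69 on the treated arrays and -0.10 on the sham array. Its mean difference was -3.39 ± 0.24 (SD, n = 2; limma adjusted p = 0.0691).

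Ccn5, a matricellular protein of the CCN family, stood at -0.63 on the PBS array, -3.94 and -3.61 on the treated arrays and -4.22 on the sham array. The treated arrays were near sham (mean difference -3.14 ± 0.23, SD, n = 2, limma adjusted p = 0.0691). The other 5 were Gpr15lg, which encodes a ligand of the receptor GPR15 (-3.18 and -3.25), the cadherin Cdhr1 (-2.92 and -3.04), the interleukin 17 receptor subunit Il17re (-3.26 and -2.67), and the paraoxonase Pon3 (-2.63 and -2.69), along with Rab15. For all 12 genes the PBS array was the highest of the 4 myocardial arrays. Because PBS is 1 array and enters every one of these differences, its own deviation and an effect of treatment cannot be told apart. Just outside the 12 came the crosslinking enzyme Tgm1 (-2.52 and -2.65) and Ccn3 (-3.02 and -2.47).

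**Figure D2:**
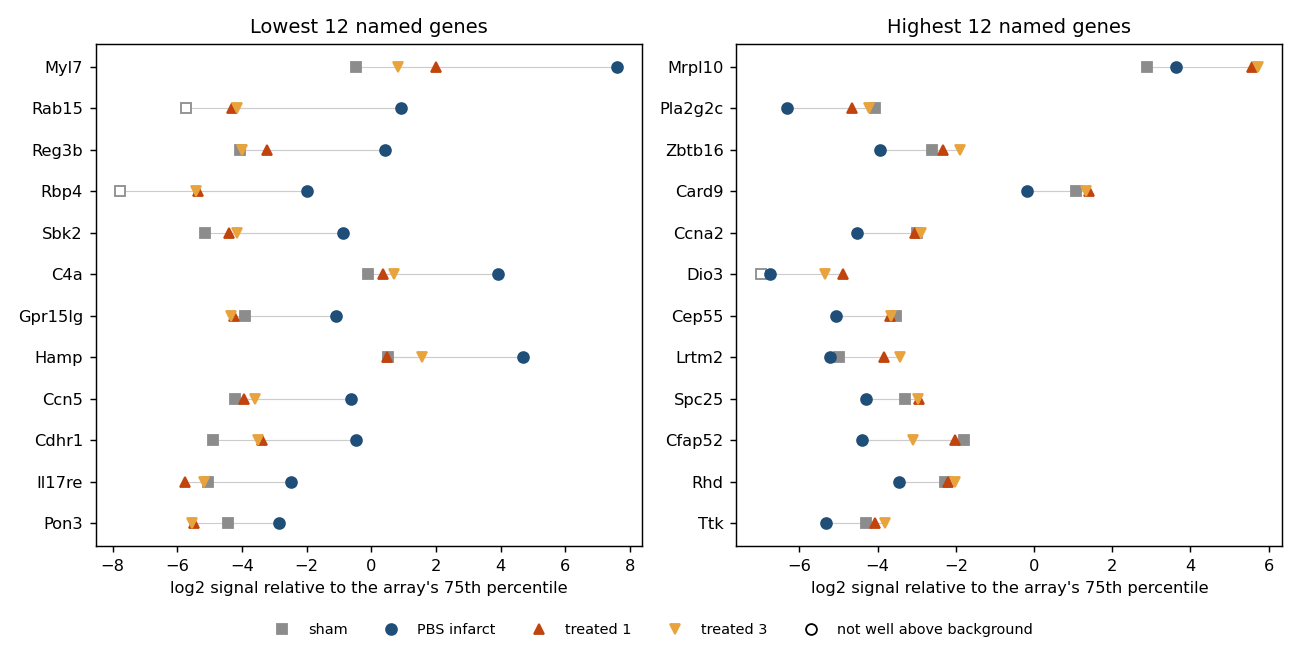
Level of the 12 lowest (left) and 12 highest (right) named genes on the sham, PBS and treated arrays, as log2 signal relative to each array's 75th percentile; open symbols were not well above background. In every row on the left PBS lies to the right of the treated arrays, as in Myl7 (7.60 against 2.02 and 0.83), and on the right it lies to their left.

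Genes of atrial muscle, as a list, were lower in the treated arrays than on PBS, with the shift carried by a few members. Of 11 measured members, 9 were lower in both treated arrays and 1 higher, and 3 of those were 2-fold lower. Over all features the shares were 34.1% lower in both, 38.7% higher in both and 0.822% 2-fold lower. Their median difference was -0.50, with -0.44 and -0.66 in replicates 1 and 3. Nppa, the atrial natriuretic peptide, stood at 6.49 on the PBS array against 5.12 and 3.36 in treated replicates 1 and 3, with sham at 2.80. Both treated arrays were below PBS, replicate 3 further than replicate 1. Myl4, the atrial essential light chain, barely differed, at 7.10 on the PBS array, 6.98 and 7.02 on the treated arrays and 7.33 on the sham array, and the channel gene Kcna5 was higher in both (1.14 and 0.37). In bulk tissue, fewer cells of a type and less RNA per cell cannot be told apart.

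Several atrial genes were measured on the PBS side only, so only a bound can be given. The bound sets the bright side's mean against the dim side's, in which each array takes the higher of the probe's own signal and the array's lowest signal called well above background. Mybphl, an atrial myosin-binding protein, had levels of 1.44 on the PBS array, -6.16 and -6.66 on the treated arrays and -5.39 on the sham array, which makes it at least 231-fold lower on the mean of the treated pair. Replicate 1 alone differed from PBS by -7.60 on the log2 scale, short of the bound's 7.85. The atrial growth factor gene Bmp10 read -1.72 on the PBS array, -7.92 and -7.76 on the treated arrays and -7.71 on the sham array, at least 37.3-fold lower. Both genes were well above background on PBS and on neither treated array. The scatter of the treated pair is then that of readings below the scanner's call, so no p-value is given for these genes. Sarcolipin, a calcium pump regulator of the atrium encoded by Sln, was well above background on PBS and 1 treated array. It read 4.69 on PBS, -3.68 on replicate 3, -6.63 on replicate 1 and -7.45 on sham, the last 2 not well above background. Of the atrial cardiomyocyte markers, 9 of 9 members on the array were well above background on PBS, 6 and 7 on treated replicates 1 and 3 and 7 on sham, and the signals of the list summed to 451, 165, 143 and 169 times the 75th percentile in that order. How far atrial tissue in a sample contributed to these differences was not tested.

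Of 15443 named genes on the array, 222, Mybphl and Bmp10 among them, were measured on PBS and on neither treated array. A bound of 2-fold or more was found for 110 of them. In the opposite direction 121 were measured on both treated arrays and not on PBS, 36 of them with such a bound. The largest lower bounds after Mybphl were Wfdc21, a secreted protease inhibitor family member (at least 144-fold lower), Atp1b4 (85.8-fold), Bmp10 with the bound given above, the brain proteoglycan Bcan (27.0-fold) and the aldehyde dehydrogenase Aldh1b1 (19.8-fold). Wfdc21 had levels of 0.23 on the PBS array, -7.75 and -7.56 on the treated arrays and -7.52 on the sham array. Only PBS was well above background for it. For the same reason no p-value is given for Wfdc21, Atp1b4, Bcan and Aldh1b1.

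Several markers of surface linings, and the fat cell marker Adipoq, were seen mainly on PBS. Msln, the mesothelial surface protein mesothelin, read 0.94 on PBS, -6.17 and -6.03 on treated replicates 1 and 3 and -6.85 on sham, and was well above background on PBS and replicate 3. Krt19, a keratin of lining cells, read -2.80, -8.06 and -7.36 and -7.49 in the same order, with PBS alone above background. In the mesothelial and epicardial list, 7 of 8 members on the array were well above background on PBS, 4 and 4 on treated replicates 1 and 3 and 3 on sham, and the signals of the list summed to 2.85, 0.541, 0.634 and 0.642 times the 75th percentile in that order. Krt8, a keratin partner, was above background on none of them. Of the 3 members measured on PBS and both treated arrays, 2 were lower in both, beside 34.1% of all features, and 1 lay on opposite sides. The median of those members was -0.34 (-0.68 and -0.01 in replicates 1 and 3). Wt1 differed by -0.03 and 0.19 on its brightest probe, and by -0.50 and 0.27, and 0.12 and 0.13, on others. Upk1b differed by -0.68 and -0.01. Adipoq, the fat cell hormone adiponectin, read -2.66 on PBS and -8.17 and -7.88 on the treated arrays, at least 19.3-fold lower. It too was well above background on PBS and on neither treated array, so no p-value is given. Of the fat cell markers, 6 of 8 members on the array were well above background on PBS, 5 and 4 on treated replicates 1 and 3 and 4 on sham, and the signals of the list summed to 10.6, 8.20, 9.83 and 11.1 times the 75th percentile in that order. Lep, the hormone leptin, and Cidec were above background on none of the 4 myocardial arrays. Of the 4 fat cell markers measured on PBS and both treated arrays, 2 were lower in both, beside 34.1% of all features. The other 2 lay on opposite sides of PBS, and the median was -0.21.

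Schwann cell and neuronal markers were lower in both treated arrays for 6 of 8 measured genes, beside 34.1% of all features. Their median was -0.62 (-0.90 and -0.43). S100b, a glial calcium-binding protein, stood at -3.09 on the PBS array against -5.29 and -4.85 in treated replicates 1 and 3, with sham at -6.10. Its mean difference was -1.98 ± 0.31. Gap43, a protein of growing axons, differed by -1.27 and -0.80, whereas Dbh, an enzyme of noradrenaline synthesis, was higher by 0.43 and 0.54. Across that list, 10 of 11 members on the array were well above background on PBS, 8 and 8 on treated replicates 1 and 3 and 7 on sham, and the signals of the list summed to 6.05, 3.97, 5.26 and 4.08 times the 75th percentile in that order. The part these cell types play in the differences of other lists was not tested.

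**Figure D3:**
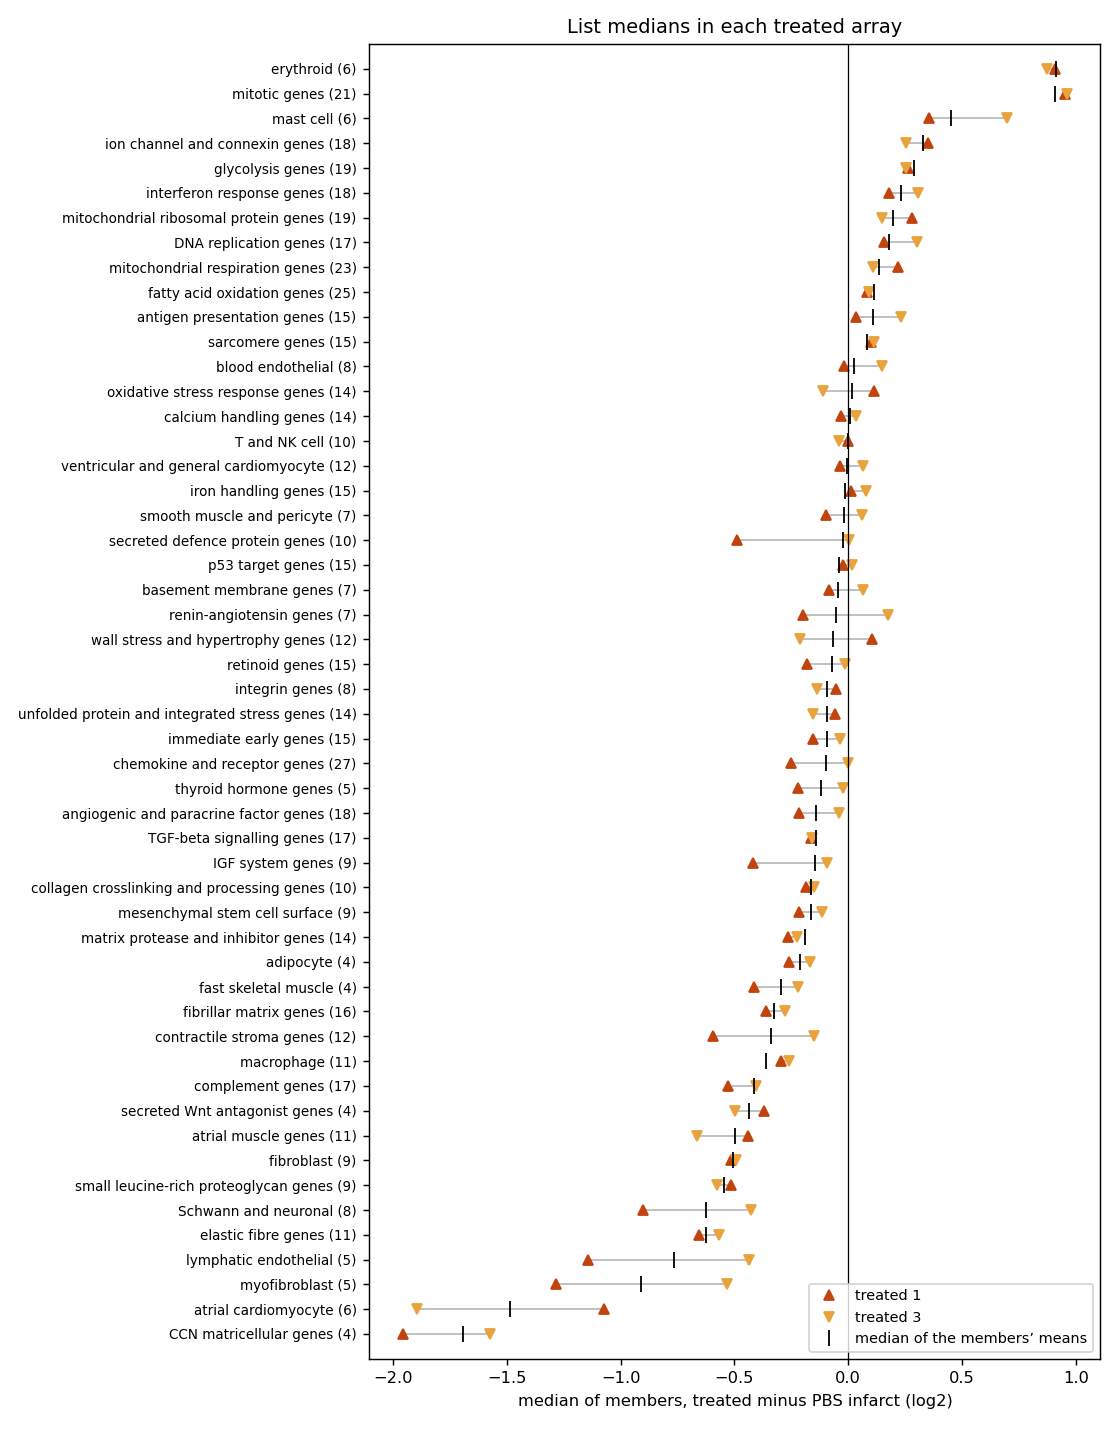
Median log2 difference from PBS of each list with at least 4 measured members (number measured in parentheses), in treated replicate 1 (upward triangles), in replicate 3 (downward triangles) and of the members' means (black ticks). Mitotic and erythroid lists lie farthest right, with medians of 0.91 each, and the CCN list farthest left at -1.69; atrial cardiomyocyte, myofibroblast and lymphatic lists show the widest gaps between the arrays.

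Mitotic genes stood above PBS as a group. Of 21 members measured on all 3 arrays, 20 were higher in both treated arrays and 0 lower. In both arrays 7 were 2-fold higher, beside 0.429% of all features. The median difference was 0.91, with 0.95 and 0.96 in replicates 1 and 3, beside 0.01 over all features, of which 38.7% were higher in both. With normexp background correction the median was 0.53. Against sham, the median of the members was -0.63 on PBS and 0.17 on the mean of the treated pair. None passed limma's adjusted threshold, and 18 of 21 had an unadjusted p under 0.05, beside 10.6% of all features. Kif23, a kinesin of cytokinesis, was the exception in direction, at 0.06 and -0.44. Genes of this kind are switched on late in the cell cycle, partly through CCAAT boxes bound by NF-Y and through a cell cycle homology region, commonly written TTTGAA.

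Promoters of members are shown because nearly all members of the group stood on the same side of PBS. They come from RefSeq (build GRCr8) and run from 250 bases before the annotated start to 50 after it, 5′ to 3′ on the gene's strand. Capitals mark CCAAT and TTTGAA, or their reverse complements ATTGG and TTCAAA.
Cep55 (chr1:245245113-245245412, plus strand): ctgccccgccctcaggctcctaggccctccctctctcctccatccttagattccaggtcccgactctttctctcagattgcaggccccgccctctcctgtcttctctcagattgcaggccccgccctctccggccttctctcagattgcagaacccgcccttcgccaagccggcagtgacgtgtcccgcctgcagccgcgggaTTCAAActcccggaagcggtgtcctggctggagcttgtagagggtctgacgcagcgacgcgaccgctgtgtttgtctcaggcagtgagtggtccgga
Spc25 (chr3:74396669-74396968, minus strand): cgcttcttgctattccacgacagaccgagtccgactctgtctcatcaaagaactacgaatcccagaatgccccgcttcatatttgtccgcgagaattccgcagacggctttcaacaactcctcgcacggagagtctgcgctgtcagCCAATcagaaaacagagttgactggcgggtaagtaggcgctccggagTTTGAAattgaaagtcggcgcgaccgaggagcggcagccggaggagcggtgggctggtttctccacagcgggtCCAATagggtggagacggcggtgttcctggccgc
Ttk (chr8:93634389-93634688, plus strand): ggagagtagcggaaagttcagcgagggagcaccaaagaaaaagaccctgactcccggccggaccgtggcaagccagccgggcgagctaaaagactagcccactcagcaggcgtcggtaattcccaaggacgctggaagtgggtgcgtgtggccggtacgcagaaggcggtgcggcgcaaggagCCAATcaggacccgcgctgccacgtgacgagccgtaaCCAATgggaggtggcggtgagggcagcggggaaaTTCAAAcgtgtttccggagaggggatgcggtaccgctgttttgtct
Cdk1 (chr20:19265043-19265342, plus strand): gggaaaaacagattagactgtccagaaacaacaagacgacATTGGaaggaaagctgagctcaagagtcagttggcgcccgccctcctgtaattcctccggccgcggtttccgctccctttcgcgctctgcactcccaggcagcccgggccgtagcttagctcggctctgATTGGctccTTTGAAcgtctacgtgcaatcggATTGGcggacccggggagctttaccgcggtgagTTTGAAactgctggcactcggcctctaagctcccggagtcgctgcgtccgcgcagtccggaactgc
Searching both strands, CCAAT was held by 17 of the 24 mitotic promoters in the table (70.8%), against 37.7% of all 27457 promoters. TTTGAA was held by 18 of 24 (75%), against 18.1%, and both motifs by 13 of 24 (54.2%), against 7.25%. The letters alone are a description of these windows and do not show that a factor binds.

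Among cyclins and kinases, Ccna2, the cyclin of S and G2 phases, stood at -2.99 on the sham array, -4.53 on the PBS array, and -3.03 and -2.90 on treated replicates 1 and 3. Both treated arrays were at the sham level and above PBS (mean difference 1.56 ± 0.09, SD, n = 2, limma adjusted p = 0.138). The second Ccna2 probe gave 1.19 and 1.53. Ttk, the spindle checkpoint kinase, had levels of -5.33 on the PBS array, -4.06 and -3.80 on the treated arrays and -4.31 on the sham array (mean difference 1.40 ± 0.18), and Cdk1, the main mitotic kinase, levels of -1.87 on the PBS array, -0.85 and -0.56 on the treated arrays and -1.14 on the sham array (1.17 ± 0.21). All 8 measured cyclins and kinases were higher in both arrays.

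Spc25, a subunit of the kinetochore's Ndc80 complex, stood at -4.30 on the PBS array, -2.94 and -2.98 on the treated arrays and -3.31 on the sham array. Its treated values were almost equal and above PBS (mean difference 1.35 ± 0.03, SD, n = 2, limma adjusted p = 0.173). Cep55, which directs the final cut of cytokinesis, stood at -5.08 on the PBS array, -3.69 and -3.66 on the treated arrays and -3.53 on the sham array. Sham and the treated arrays grouped together and PBS lay below them (mean difference 1.40 ± 0.03, SD, n = 2, limma adjusted p = 0.156). Of the others, Ube2c, which loads ubiquitin for the anaphase-promoting complex, differed by 1.25 and 1.09 and the spindle motor Kif11 by 1.0 and 1.30. Outside this list, Mybl2, a cofactor of late cell cycle transcription, was at least 3.97-fold and Mxd3, a Max partner, at least 3.83-fold higher by bounds. Both were well above background on the treated arrays and not on PBS, so no p-value is given for them.

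DNA replication genes were higher too, by less. Of 17 measured, 13 were higher in both treated arrays and 0 lower, beside 38.7% and 34.1% of all features. The list had a median of 0.18 (0.16 and 0.30). Rrm2, the small subunit of ribonucleotide reductase, led at 0.97 and 1.23, followed by the cyclin Ccne1 at 0.86 and 0.73 and Gins1 at 0.72 and 0.74. Pcna, the sliding clamp, differed by 0.11 and 0.30. All 5 measured genes of the replicative helicase were higher in both arrays, among them Mcm4 by only 0.02 and 0.07.

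Erythroid genes were the other group with a median near 2-fold above PBS. Slc4a1, the band 3 anion exchanger of red cells, stood at -1.76 on the PBS array against -0.49 and -0.05 in treated replicates 1 and 3, with sham at -0.29, and its mean difference was 1.49 ± 0.31. Alas2, which starts haem synthesis in red cell precursors, differed by 1.04 and 1.16, the haemoglobin chaperone Ahsp by 1.12 and 0.93 and the factor Klf1 by 0.78 and 0.82. A second Ahsp probe gave 1.41 and 1.21. The globin values depended on the probe: Hba-a1 differed by 0.29 and 0.45 on its brighter probe and by 0.72 and 0.87 on the other. Hbb differed by -0.27 and 0.28 on its brighter probe, on opposite sides of PBS, and by 0.44 and 0.70 on the other. Both have probes that may report several globin copies. In all, 5 of 6 measured members were higher in both arrays (median 0.91), beside 38.7% of all features. Against sham, the median of the members was -0.93 on PBS and -0.20 on the mean of the treated pair. Rhd, a Rh blood group protein of the red cell membrane and no member of the list, was among the 12 highest genes (1.28 and 1.44). Summed signals of the list were 384 times the 75th percentile on PBS, 414 and 505 on the treated arrays and 679 on sham. How much blood each sample held was not tested.

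The remaining genes among the 12 highest had no common role. Sham lay below PBS for 2 of the 12. Mrpl10, a protein of the mitochondrial ribosome, ranked first, at 2.88 on the sham array, 3.63 on the PBS array, and 5.57 and 5.72 on treated replicates 1 and 3. The treated arrays were the highest of the 4 (mean difference 2.01 ± 0.11, SD, n = 2, limma adjusted p = 0.110), but a second Mrpl10 probe gave only 0.13 and 0.01, so the probes of this gene disagree. Zbtb16, a zinc finger factor induced by glucocorticoids, stood at -3.94 on the PBS array, -2.32 and -1.89 on the treated arrays and -2.60 on the sham array (mean difference 1.83 ± 0.30). Card9, an adaptor of innate immune signalling, stood at -0.18 on the PBS array, 1.41 and 1.33 on the treated arrays and 1.08 on the sham array (1.55 ± 0.06). Dio3, which inactivates thyroid hormone, stood at -6.75 on the PBS array, -4.90 and -5.35 on the treated arrays and -6.98 on the sham array, with sham not well above background (1.63 ± 0.32). The secreted phospholipase Pla2g2c differed by 1.65 and 2.10, the leucine-rich repeat gene Lrtm2 by 1.37 and 1.79 and the cilia gene Cfap52 by 2.39 and 1.31. By bounds, the Ly6 family member Ly6cl1 was at least 7.62-fold higher, the ErbB ligand Nrg1 6.55-fold, the lung surfactant protein Sftpc 4.59-fold and Armc12 3.72-fold, each on the mean of the pair. The treated arrays lay apart for the first 3. Ly6cl1 differed from PBS by 1.39 and 4.47, Nrg1 by 3.28 and 2.14 and Sftpc by 1.04 and 3.35, while Armc12 differed by 2.44 and 2.47. These genes were well above background on the treated arrays and not on PBS, so no p-value is given for them. Ly6cl1 belongs to a family of close copies. Of the lung markers, 3 of 8 members on the array were well above background on PBS, 4 and 5 on treated replicates 1 and 3 and 2 on sham, and the signals of the list summed to 0.483, 0.470, 0.763 and 0.575 times the 75th percentile in that order, and the part of lung tissue in the Sftpc values was not tested. Just outside the 12 came the red cell gene Slc4a1, given above (1.27 and 1.71).

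Fibrillar matrix genes stood lower in the treated arrays, more in matricellular proteins than in the collagens themselves. How much scar each sample held was not tested. Of 16 measured members, 12 were lower in both arrays and 1 higher, beside 34.1% and 38.7% of all features. The median difference was -0.33 (-0.36 and -0.28). Against sham, the median of the members was 0.27 on PBS and -0.03 on the mean of the treated pair. Col1a1, the main scar collagen, stood at 2.70 on the PBS array against 2.34 and 2.58 in treated replicates 1 and 3, with sham at 2.61. That gap is smaller than the SD of 0.31 between the treated arrays across features (mean difference -0.24 ± 0.17). Its direction depends on the probe, since the other Col1a1 probe gave 0.01 and 0.22. Col3a1 differed by -0.37 and -0.18 and Col1a2 by -0.42 and -0.30, and all 5 measured fibrillar collagen genes were lower in both by their brightest probes, with a median of -0.27. Among matricellular proteins the differences were larger. Postn, the scar protein periostin, stood at -2.58 on the PBS array, -4.41 and -4.07 on the treated arrays and -4.13 on the sham array (mean difference -1.66 ± 0.24), and Comp, cartilage oligomeric matrix protein, at -2.59 on the PBS array, -4.40 and -4.22 on the treated arrays and -4.52 on the sham array (-1.72 ± 0.13). Fn1, fibronectin, differed by -0.81 and -0.65, and by -1.05 and -0.44 on another probe. Tnc, tenascin C, was not well above background on any of the 3 arrays.

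Small leucine-rich proteoglycans, which bind collagen fibrils, were all lower: 9 of 9 measured members in both arrays. Over all features the share was 34.1%, and the list had a median of -0.55. Fmod, fibromodulin, stood at -1.98 on the sham array, 1.30 on the PBS array, and -1.73 and -0.87 on treated replicates 1 and 3. PBS was the highest array by a wide margin, and the treated arrays differed from it by -2.60 ± 0.61 (SD, n = 2; limma adjusted p = 0.191). Chad, chondroadherin, differed by -1.77 and -2.26 and Aspn, asporin, by -1.49 and -1.36, both 2-fold or more. The members Dcn (decorin, -0.43 and -0.24) and Bgn (biglycan, -0.39 and -0.23, and -0.54 and -0.55 on another probe) differed by much less.

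Elastic fibre genes were lower in both arrays for 10 of 11 measured members, beside 34.1% of all features. The list had a median of -0.62 (-0.66 and -0.57). Efemp1, fibulin 3, stood at 1.37 on the PBS array against 0.27 and 0.28 in treated replicates 1 and 3, with sham at 0.39. The treated arrays were nearly equal, each more than 2-fold under PBS (-1.1 ± 0.01). Fbn1, the microfibril protein fibrillin 1, differed by -0.92 and -0.90, Mfap5 by -1.21 and -0.93 and Eln, elastin, by -0.78 and -0.47 (-0.38 and -0.54 on another probe). By brightest probes Emilin1 alone was higher in both, at 0.20 and 0.28, but its other probe gave -0.10 and 0.11. Of the enzymes that crosslink collagen and elastin, Loxl1 differed by -0.97 and -0.89, and the list had a median of -0.16, with 8 of 10 lower in both. Proteases and inhibitors of the matrix had a median of -0.19. Timp1, an inhibitor of metalloproteinases, differed by -0.63 and -0.46, and Timp4, the form typical of heart muscle, was higher, at 0.92 and 1.07. The gelatinase Mmp9 was not above background on any of the 3 arrays. Basement membrane genes showed no common side, with medians of -0.08 and 0.07 in replicates 1 and 3.

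**Figure D4:**
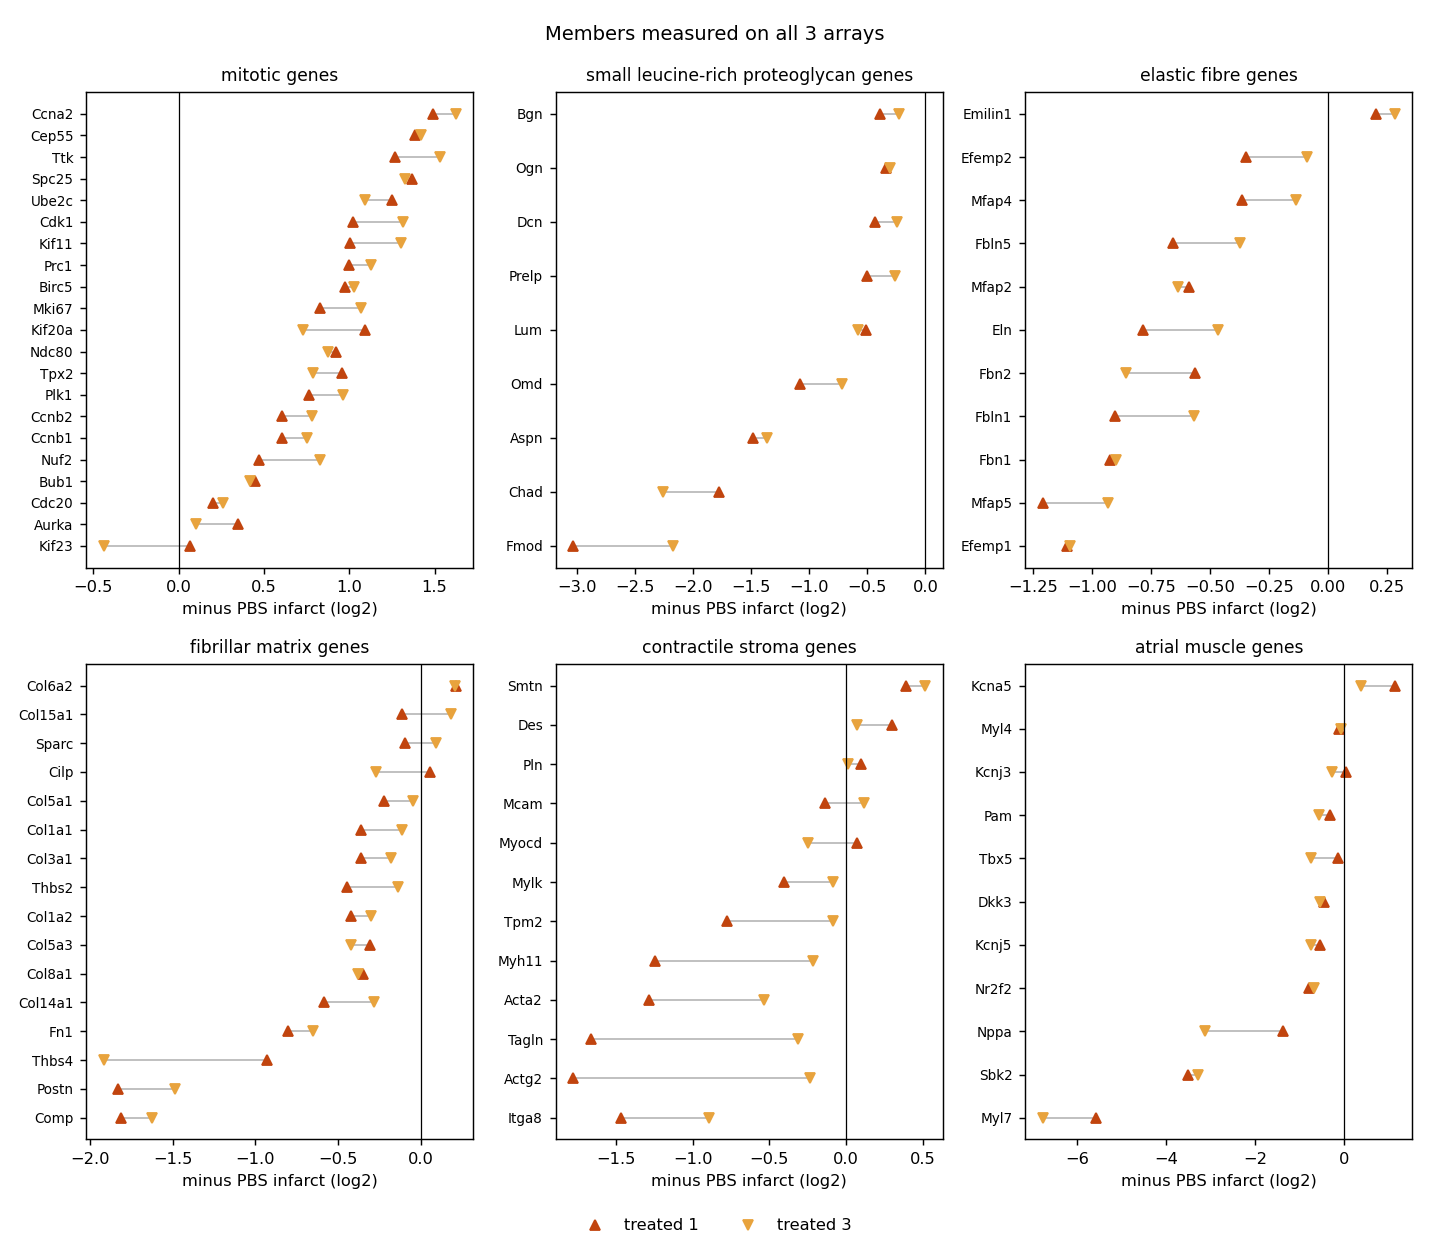
Log2 difference from PBS of every measured member of 6 lists, in treated replicate 1 (upward triangles) and replicate 3 (downward triangles); the horizontal scale differs between panels. Mitotic members lie right of 0 except Kif23, small leucine-rich proteoglycans lie left of it, and the smooth muscle genes Actg2, Tagln and Myh11 show replicate 1 well below replicate 3.

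Of the TGF-beta genes lower in both arrays, 4 were latent binding proteins, which hold the ligand in the matrix, 3 were ligands, and the others were 1 receptor and 2 targets or inhibitors. All 4 measured latent binding proteins were lower (median -0.47), led by Ltbp2 at -2.32 and -1.74. Among ligands, Inhba, an activin subunit, stood at 0.03 on the PBS array, -1.41 and -1.05 on the treated arrays and -1.37 on the sham array. Its mean difference was -1.26 ± 0.26. Tgfb2 differed by -0.54 and -0.89 (-0.17 and -0.71 on another probe) and Tgfb1, the form best known in scars, by 0.40 and 0.59, in the opposite direction. Of 4 measured receptors 1 was higher in both, 1 lower and 2 on opposite sides. Tgfbr2 differed by -0.08 and -0.10 on its brighter probe and by -0.67 and -0.61 on the other. Over the list, 10 of 17 measured members were lower in both arrays and 2 higher, beside 34.1% and 38.7% of all features (median -0.14).

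All 4 measured CCN genes were lower in both arrays, beside 34.1% of all features, and the list had a median of -1.69. Against sham, the median of the members was 1.78 on PBS and 0.46 on the mean of the treated pair. Ccn3 stood at -0.85 on the PBS array against -3.88 and -3.32 in treated replicates 1 and 3, with sham at -3.10, so replicate 1 was also under sham. Ccn2, connective tissue growth factor and a target of TGF-beta, differed by only -0.16 and -0.68, and Ccn1 by -0.89 and -0.39. Ccn4 was above background on PBS alone. Of secreted Wnt antagonists, Sfrp2 stood at -0.50 on the PBS array, -2.44 and -2.53 on the treated arrays and -4.20 on the sham array. Its mean difference was -1.98 ± 0.06 (SD, n = 2; limma adjusted p = 0.105). Frzb differed by -0.30 and -0.45, and Sfrp5 by 0.11 and 0.22 on its brighter probe and by -0.38 and -1.76 on the other. The insulin-like growth factor list had a median of -0.14, which was -0.42 in replicate 1 and -0.09 in replicate 3, with the binding proteins Igfbp6 at -1.03 and -0.54 and Igfbp3 at -0.76 and -0.69 and the ligand Igf1 at -0.50 and -0.23. Igfbp2 was above background on PBS alone.

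Contractile stroma genes separated the treated arrays from each other. Their median was -0.59 in replicate 1 and -0.15 in replicate 3. Of 12 members, 7 were lower in both, beside 34.1% of all features. Acta2, the smooth muscle actin of myofibroblasts, stood at -2.01 on the sham array, -0.07 on the PBS array, and -1.36 and -0.60 on treated replicates 1 and 3. Replicate 3 lay nearer PBS than replicate 1 did. Myh11, smooth muscle myosin, differed by -1.25 and -0.22, and Tagln, which binds smooth muscle actin, by -1.67 and -0.32. Itga8, an integrin of myofibroblasts, differed by -1.47 and -0.90. The CArG box, the serum response element of many of these genes, was found in 0 of the 10 contractile promoters in the table, whose windows reach only 250 bases upstream, and in 1.64% of all promoters.

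Markers of fibroblasts were lower in both treated arrays for all 9 measured genes, beside 34.1% of all features. The list had a median of -0.51 (-0.51 and -0.49). Pi16, a marker of resting adventitial fibroblasts, stood at 2.16 on the PBS array against 0.24 and 0.85 in treated replicates 1 and 3, with sham at 1.48. A second probe gave a smaller gap, at -0.86 and -0.56, against -1.92 and -1.31 for this probe. Pdgfra, the fibroblast receptor for platelet-derived growth factor, differed by -0.52 and -0.49 and the factor Tcf21 by -0.62 and -0.52. Of 5 measured myofibroblast markers all were lower in both, with a median of -0.91, again wider in replicate 1 (-1.29) than in replicate 3 (-0.53), and -0.37 with dim probes kept. On that list, 6 of 7 members on the array were well above background on PBS, 6 and 5 on treated replicates 1 and 3 and 5 on sham, and the signals of the list summed to 2.21, 1.09, 1.42 and 0.912 times the 75th percentile in that order. Tnc was above background on none. Among the fibroblast markers, 9 of 9 members on the array were well above background on PBS, 9 and 9 on treated replicates 1 and 3 and 9 on sham, and the signals of the list summed to 140.4, 98.6, 122 and 129 times the 75th percentile in that order. The part of fibroblast and myofibroblast number in the matrix lists was not tested. Smooth muscle and pericyte markers had medians of -0.10 and 0.06 in replicates 1 and 3.

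Complement genes were lower in both arrays for 13 of 17 measured members, beside 34.1% of all features, with a median of -0.41 (-0.53 and -0.41). Of the 17, 4 were 2-fold lower, beside 0.822% of all features. In the classical arm, C4a (above) stood apart from C1qa (-0.58 and -0.41) and C1s (-0.38 and -0.28). The alternative arm differed more: factor B, Cfb, by -1.31 and -0.96 and factor D, Cfd, by -1.25 and -1.36. Central C3 differed by -0.76 and -0.91. C6, of the terminal pathway, stood at -1.90 on the PBS array against -4.12 and -5.05 in treated replicates 1 and 3, with sham at -2.75. Here the treated arrays were below sham as well as PBS (mean difference -2.68 ± 0.66).

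Macrophage markers were lower in both for 8 of 11 measured genes, beside 34.1% of all features (median -0.36, and -0.20 with normexp). Of these markers, 12 of 12 members on the array were well above background on PBS, 11 and 11 on treated replicates 1 and 3 and 11 on sham, and the signals of the list summed to 10.1, 6.68, 8.09 and 7.31 times the 75th percentile in that order. Trem2, a receptor of lipid-handling macrophages, differed by -0.75 and -0.70 and the lectin Lgals3 by -0.90 and -0.29. Cd68, a lysosomal marker of the whole class, did not share this, at 0.13 and 0.08, and Csf1r differed by 0.33 and 0.57 on its brighter probe and by -0.54 and -0.24 on the other. Among chemokines, Cxcl13, which attracts B cells, stood at -1.71 on the PBS array, -2.98 and -3.20 on the treated arrays and -4.23 on the sham array (mean difference -1.38 ± 0.16). Cxcl1, a neutrophil attractant, differed by -1.24 and -1.03 and Ccl19 by -1.01 and -0.68, while the interferon-induced Cxcl9 was higher, at 0.53 and 0.55. The chemokine list had 8 higher and 13 lower in both of 27 measured, beside 38.7% and 34.1% of all features. Its median was -0.25 in replicate 1 and -0.00143 in replicate 3.

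Interferon response genes were slightly and broadly higher, 17 of 18 in both arrays and 0 lower, beside 38.7% and 34.1% of all features, with a median of 0.23. Irf7, the factor that amplifies the response, stood at 1.53 on the PBS array against 1.97 and 2.18 in treated replicates 1 and 3, with sham at 2.27. Treated values lay between PBS and sham (mean difference 0.54 ± 0.15). Usp18, an inhibitor of interferon signalling, differed by 0.52 and 0.36 and Rsad2 by 0.41 and 0.70. None of these differences passed limma's adjusted threshold, and 2 of 18 had an unadjusted p under 0.05, beside 10.6% of all features. Antigen presentation genes had 8 of 15 higher in both and 0 lower (medians 0.03 and 0.23 in replicates 1 and 3), with the class II chaperone Cd74 at 0.52 and 0.40. The T and NK cell list was centred on PBS: 3 genes were higher and 4 lower of 10, with Gzma, a granzyme, at -0.63 and -0.84 and Gzmb at 0.52 and 0.54. Mast cell proteases were higher, with Tpsb2 at 0.90 and 0.84 and Tpsab1 at 1.11 and 0.84, both tryptases, and 4 of 6 measured markers higher in both (median 0.45, from 0.35 and 0.70 in replicates 1 and 3, and 0.19 with normexp).

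Secreted defence proteins and iron genes each held a few large differences and no shift shared by both treated arrays. Beside Reg3b, its relative Reg3g stood at -0.55 on the PBS array against -2.02 and -3.28 in treated replicates 1 and 3, with sham at -3.66. Slpi, a protease inhibitor, was higher (0.55 and 0.88), and the neutrophil calgranulin S100a8 lay on opposite sides of PBS (-0.53 and 0.47). Of iron genes, Cp, the ferroxidase ceruloplasmin, stood at 0.07 on the PBS array, -1.73 and -1.29 on the treated arrays and -1.20 on the sham array (mean difference -1.58 ± 0.31, and -2.18 and -1.90 on another probe), and Tf, transferrin, differed by -1.25 and -0.97. Hmox1, which breaks down haem, was higher, at 0.71 and 0.47. The iron importer Tfrc differed by -0.09 and -0.42, and by -0.15 and -0.72 on another probe. The defence protein median was -0.49 in replicate 1 and 0.00482 in replicate 3, and the iron median 0.01 and 0.08.

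Ventricular muscle genes lay close to PBS in both treated arrays. Myh6, the fast cardiac myosin, stood at 9.11 on the sham array, 8.62 on the PBS array, and 8.37 and 8.63 on treated replicates 1 and 3. Tnnt2, cardiac troponin T, stood at 8.07 on the PBS array, 7.83 and 7.94 on the treated arrays and 8.59 on the sham array, and Myl2, the ventricular regulatory light chain, at 7.16 on the PBS array, 7.31 and 7.34 on the treated arrays and 7.53 on the sham array. For these genes the PBS and treated arrays were close to each other, all of them below sham. The sarcomere list had a median of 0.08, which became -0.04 with cyclic loess, and calcium handling genes had one of 0.01, which became -0.03 with cyclic loess. Atp2a2, the calcium pump of the sarcoplasmic reticulum, stood at 7.29 on the PBS array, 7.21 and 7.29 on the treated arrays and 7.65 on the sham array. The stress genes of the ventricle divided the treated arrays: Nppb, brain natriuretic peptide, differed by 0.72 and -0.10 and Ankrd1 by 0.71 and 0.13.

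Among ion channels, 9 of 18 measured were higher in both arrays and 5 lower, beside the 38.7% and 34.1% of all features (median 0.33). Hcn2, a pacemaker channel, stood at -3.72 on the PBS array against -2.80 and -2.75 in treated replicates 1 and 3, with sham at -2.60. Both treated arrays were close to sham (mean difference 0.95 ± 0.03). Kcnh2, which carries the rapid repolarising current, differed by 0.70 and 0.76 (0.46 and 0.13 on another probe), while Gja1, connexin 43, differed by -0.24 and -0.17 and the pacemaker channel Hcn4 by -0.40 and -0.86.

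Energy genes stood a little above PBS. Glycolysis genes were higher in both for 17 of 19, beside 38.7% of all features, with a median of 0.29 (0.26 and 0.26). Slc2a4, the insulin-responsive glucose transporter, stood at 3.67 on the PBS array against 4.20 and 4.41 in treated replicates 1 and 3, with sham at 4.19 (mean difference 0.64 ± 0.15), and Pfkp, the platelet form of phosphofructokinase, was the only member lower in both (-0.56 and -0.48). Respiratory chain genes had a median of 0.13 (0.22 and 0.11 in replicates 1 and 3, and 0.02 with cyclic loess), with 17 of 23 higher in both, all 4 complex II genes among them (Sdhb 0.50 and 0.44, Sdhc 0.48 and 0.51). Mitochondrial ribosomal proteins had a median of 0.20, with 15 of 19 higher in both.

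Fatty acid oxidation genes had a median of 0.11 (0.03 with cyclic loess). In both arrays 13 of 25 were higher and 6 lower, beside 38.7% and 34.1% of all features. Ppara, a factor that induces them, differed by 0.58 and 1.20, and Hadh by 0.33 and 0.63. Angptl4, a lipase inhibitor induced by fatty acids, went the other way, at -0.86 on the PBS array, -1.40 and -1.65 on the treated arrays and -2.96 on the sham array. Brightness moved with these small shifts. With features split into 4 equal classes by their sham level, the median difference from PBS was -0.04 in the dimmest class, then -0.03 and 0.02, and 0.07 in the brightest. Its part in the medians of bright lists was not tested.

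Lists of stress response genes were near PBS. Of 15 measured p53 targets, 5 were higher and 5 lower in both, near the 38.7% and 34.1% of all features. Their medians were -0.02 and 0.02 in replicates 1 and 3. Cdkn1a, the cell cycle inhibitor p21 and a main p53 target, stood at 3.85 on the PBS array, 3.86 and 3.96 on the treated arrays and 4.33 on the sham array. A second Cdkn1a probe differed by 0.68 and 0.07. Mdm2, the p53 ligase, differed by 0.28 and 0.28 (-0.03 and 0.24 on another probe). Fas, a death receptor, was lower, at -0.71 and -0.51 and, on another probe, -0.31 and -0.23. Oxidative stress genes had medians of 0.11 and -0.11 in replicates 1 and 3. They divided, with the secreted enzymes Gpx3 (-1.03 and -1.12) and Sod3 (-0.70 and -0.57) lower and Srxn1 (0.66 and 0.77) higher. Chaperones of the endoplasmic reticulum were lower, among them Hspa5 (-0.43 and -0.51) and Pdia4 (-0.95 and -0.77), in a list with 8 of 14 lower in both and a median of -0.09 (-0.06 and -0.15). Immediate early genes had a median of -0.09 (-0.15 and -0.03), and Fos differed between the treated arrays (-1.71 and -0.12).

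Vegfa, the main endothelial growth factor, stood at 4.77 on the PBS array, 4.92 and 5.23 on the treated arrays and 5.29 on the sham array. Angpt1, an angiopoietin, differed by -0.65 and -0.45, Pgf, placental growth factor, by -0.56 and -0.67, and Ptn, pleiotrophin, by -1.22 and -0.85. Over the list of paracrine factors, 9 of 18 were lower and 4 higher in both, beside 34.1% and 38.7% of all features. Its medians were -0.22 and -0.04 in replicates 1 and 3. Blood endothelial markers had medians of -0.02 and 0.15 in replicates 1 and 3, with Pecam1 at -0.02 and 0.15 and Cdh5, the endothelial cadherin, at 0.69 and 1.1. Lymphatic markers were lower in both for 4 of 5 (median -0.76, from -1.14 and -0.43 in replicates 1 and 3), with Lyve1 at -0.52 and -0.60 and Pdpn, podoplanin, at -1.14 and -0.69.

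Retinoid, thyroid and angiotensin genes added few differences beyond Rbp4 and Dio3. Cyp26b1, which degrades retinoic acid, was higher, at 0.64 and 0.53. Agt, angiotensinogen, differed by -0.85 and -0.55. The thyroid receptor Thra differed by -0.42 and -0.19. In replicates 1 and 3, the retinoid medians were -0.18 and -0.01, the thyroid ones -0.22 and -0.02 and the angiotensin ones -0.20 and 0.17.

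Genes bright in the injected kind of cell stood mostly lower on the treated arrays than on PBS. On the labelled-ADSC array, 72 named genes were at least 64-fold brighter than on sham, a choice that used neither PBS nor the treated arrays. Of these, 42 were well above background on PBS, 30 and 29 on treated replicates 1 and 3, and 29 on none of the 3. Over all probes the shares well above background were 67.1% on PBS and 67.7% and 65.8% on treated replicates 1 and 3. Among the 26 measured on all 3 arrays, 20 were lower than PBS in both treated arrays, 3 higher in both and 3 on opposite sides, with a median of -0.56 (-0.61 and -0.45), and 6 were 2-fold lower and 0 2-fold higher. Over all features the shares were 34.1% lower in both, 38.7% higher in both and 0.822% 2-fold lower. With a 16-fold choice, 147 of 262 genes were measured and the median was -0.52.

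Among these genes, Gpc3, a cell surface glypican, stood at -2.16 on the PBS array, -4.21 and -3.77 on the treated arrays and -4.71 on the sham array, and at 2.98 in the labelled cells. Cst6, a cystatin, stood at -2.49 on the PBS array against -5.23 and -4.00 in treated replicates 1 and 3, with sham at -6.12, the last not well above background. Ltbp2 and Ccn5, given above, also belong here, as do Il17re and Rell2 (-1.91 and -1.77). The highest was Cdkn2a, a cell cycle inhibitor that rises in cultured and ageing cells, at -4.83 on the PBS array, -4.52 and -4.01 on the treated arrays and -4.73 on the sham array against 2.06 in the cells. The potassium channel gene Kcnk12 differed by 0.53 and 0.30, the asparagine synthetase gene Asns by 0.12 and 0.01, the adenosine receptor gene Adora2b by -0.02 and 0.26, Spon2 by -0.19 and 0.34 and Gpnmb by 0.07 and -0.09. Of the surface markers used to define such cells, Cd44 differed by -0.71 and -0.61 on its brighter probe and -0.11 and -0.22 on the other, and Alcam by -1.0 and -0.82. Thy1 was above background on none of the 4 myocardial arrays, against a level of 0.82 in the cells. Over that marker list, 1 of 9 measured genes was higher and 5 lower in both (median -0.16). No gene used here marks donor cells alone, and the share of injected cells left in the tissue was not tested.

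**Figure D5:**
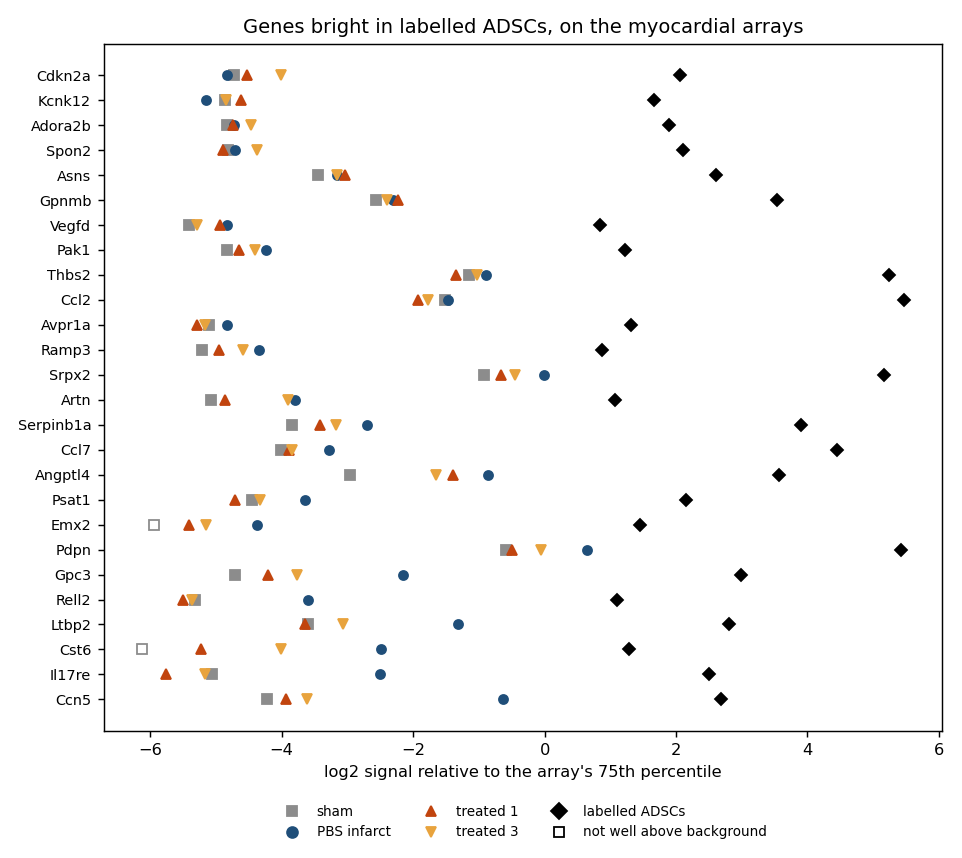
Level of the 26 genes at least 64-fold brighter in labelled ADSCs (black diamonds) than in sham and measured on the PBS and treated arrays, as log2 signal relative to each array's 75th percentile; open symbols were not well above background. Each myocardial value lies far left of the diamond, and PBS (blue) lies right of both treated arrays in 20 of 26 rows, most widely for Ccn5 (-0.63 against -3.94 and -3.61).

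The treated arrays also differed from each other, by 2-fold or more at 227 features (1.33%). Replicate 3 was higher for Ccl21, a lymphatic chemokine with several rat copies, at 1.60 on the PBS array against -1.43 and 1.17 in treated replicates 1 and 3, with sham at -2.82. Mbp, a myelin protein, followed, at -0.90 on the PBS array against -3.39 and -1.78 in treated replicates 1 and 3, with sham at -2.43. For both genes replicate 3 lay nearer PBS. Other genes higher in replicate 3 were Ccdc92, Rergl, the potassium channel gene Kcnv2, Fos, Actg2 and Uqcc6. A second Ccdc92 probe put replicate 3 at 0.80 from PBS, against 2.12 for the brighter probe. Replicate 1 was higher for Asmt, the last enzyme of melatonin synthesis (1.98 and -0.16 from PBS), the pituitary hormone subunit Lhb (2.16 and 0.05), Iqcm, Lpal2, the ubiquitin-like Ubd (0.04 and -1.84), Spp1, osteopontin (-0.29 and -2.12), Nppa and Atp4a. Atp4a, a proton pump subunit, lay on opposite sides of PBS on its brighter probe (0.80 and -0.81) and above it on the other (1.13 and 1.06).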

How the data were processed

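Total RNA, labelled with Cy3, was hybridised to 1-colour Agilent rat arrays, 1 array a sample. The authors scanned the arrays and extracted spot intensity with Agilent Feature Extraction (version 11.0.1.1 in the submitters' processing notes), and the deposited processed signal is already background-corrected, per the file headers. A second file of log2 values was deposited by the authors, and its myocardial columns each have a median of 8.85. Those followed the scanner signals with r of 0.9998 or more, and were used as an alternative. How it was normalized is not stated in the labels.

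Here, log2 of the processed signal minus each array's 75th percentile was taken, control spots were left out, spots of a probe were averaged, and the brightest probe stood for a gene. The headers name build rn4. Symbols came from the RefSeq GRCr8 gene table, which named 18355 of 30367 probes, and all comparisons were fitted over the whole array. A feature was tested where the probe was well above background on the PBS and both treated arrays. Treated arrays were set against PBS with limma 3.58.1 (lmFit, eBayes, Benjamini-Hochberg) in R 4.3.3, tested on simulated data, and tables were handled with Python 3.11.15, pandas 2.3.3 and numpy 2.4.6. Alternatives were normexp background correction (offset 50, on median signals, as the files hold no mean), median, quantile and cyclic loess scaling, the deposited table, looser filters, the mean of a gene's probes, other fold thresholds, a trended and robust variance, sham in the fit, and leaving out each treated array.

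Named were the 12 highest and 12 lowest genes by the smaller difference, up to 6 each way by bound, 8 each way by the gap between treated arrays, 6 each way of the ADSC-bright genes, and up to 8 of each list, first those written for their role or with the largest difference. Kif23, Emilin1, Krt8, Cidec, Dbh, Wt1 and Upk1b were named after their values were seen. The comparison, its members and the lists were chosen with earlier results of these data known. Some genes counted in the lists are not reported here by name.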

Additional observations from a re-analysis of the deposited data

How the results depend on the processing

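The counts depended on the filter, the threshold and the background correction, and the causes were not tested. Features 2-fold higher in both treated arrays numbered 73, against 24 with normexp, 188 with probes well above background on at least 1 array, 328 with no filter, 379 at 1.5-fold and 6 at 3-fold. With 1 treated array left out they numbered 157 to 183. The 2-fold lower features numbered 140, against 65, 343, 473, 448 and 46 in the same order, and 237 to 318 with 1 array left out. The 1 feature past limma's threshold became 84 with normexp, 48 with the trended, robust variance, and 0 with the deposited table, with the filter at 1 array and with no filter. Features 2-fold apart between the treated arrays numbered 227, against 98 with normexp, 746 with the filter at 1 array, 1600 with no filter and 1039 at 1.5-fold. The median of the ADSC-bright genes was -0.56, against -0.31 with normexp and -0.42 with no filter. For Rab15 the adjusted p was 0.000145 with normexp, 0.0905 with the filter at 1 array and 0.10 with no filter, and between 0.0014 and 0.0498 in the others. Rab15 has no value on the myocardial arrays in the deposited table.
The 24 genes ranked highest and lowest, and no other named gene, were followed under the alternatives that keep all 3 arrays. Of their 183 values, 168 kept direction and side of the threshold, 13 passed it where they had not, 2 no longer passed it and 0 changed sign. With 1 treated array left out, all 48 values of these genes kept their sign, which their ranking by both arrays fixes. For the 22 lists with a median at least 0.25 from 0, all 219 values under alternatives had the same direction. Leaving out a treated array leaves 1 array on each side and no residual degrees of freedom, so those values have no test. No paired analysis was possible because the PBS group is 1 array and the groups share fewer than 2 replicate numbers. Signal over background limits the report to features seen on all 3 arrays, apart from the bounds.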
